A study of Mus musculus with 14 samples.

Results

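Idh1, Cbs, Cbr2, Decr1 and Pgm2l1 are 5 genes of metabolic enzymes, of 27179 genes in the keratinocyte table and 24411 in the epidermis table, that were picked because their RNA was higher in p63beta than in p63alpha skin cells. The choice used that contrast and names no threshold, so the differences between the genotypes in these 5 genes are described below with no p-value, and where a fit over all genes called one of them, that is given as a count from which nothing is read. The series follows the C-terminus of the transcription factor p63 in newborn mice. The p63alpha group carried floxed exon 13 of Trp63 on both alleles (Trp63-Ex13fl/fl) with no Cre named in the labels. The p63beta group carried the same floxed alleles together with KRT14-Cre, in which the keratin 14 promoter drives the recombinase in basal keratinocytes, so that skin cells of other lineages keep exon 13. Keratinocytes were trypsin-isolated from epidermis and cultured at low calcium while proliferating, with 3 libraries per genotype, and whole epidermis gave 4 libraries per genotype. Nothing in the labels ties libraries to animals, and a p-value here measures only the spread between libraries, part of which may be technical.

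Of the Trp63 transcripts in the epidermis table, 3 expressed ones have an annotated match with exon 13, and 2 of these were lower in p63beta. NM_001127264 ranged from 30.7 to 116 TPM (transcript abundance scaled by length and library total) in the p63alpha libraries and from 6.16 to 19.6 TPM in the p63beta libraries. NM_011641 ranged from 37.5 to 107 TPM in the p63alpha libraries and was listed at 0 in all 4 p63beta libraries. The other, NM_001127262, went against the label, at 8.01 to 23.6 TPM under p63alpha and 133.8 to 249.9 TPM under p63beta. It has the same annotated match as NM_011641, so which of these 2 carries the exon is not settled by the annotation used here. The keratinocyte table counts whole genes and cannot show the loss of an exon. A keratinocyte library held 20688027 to 30066041 counted read pairs, and an epidermis library 21290068 to 44909629 estimated counts. Markers of keratinocytes (10 genes, all detected) summed to 31021 to 44415 CPM (counts scaled by library total) in keratinocytes and 18948 to 33477 CPM in epidermis. The keratinocyte library p63beta 3 stood apart, with heart muscle markers (13 genes) summing to 3777 CPM against 127 to 277 CPM in the other 5 libraries, and the counts of the enzyme lists are given with and without it. In epidermis, p63alpha library EP09 had the highest sum of sebaceous gland and hair follicle markers (10 genes), 506 CPM against 93.2 to 227 CPM in the other 7.

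The enzymes work in different pathways. IDH1 oxidises isocitrate in the cytosol and makes NADPH, the reducing agent of lipid synthesis and of antioxidant defence. CBS joins homocysteine to serine, the entry to transsulfuration, which leads to cysteine and glutathione. CBR2 and DECR1 are mitochondrial and both use NADPH, CBR2 to reduce carbonyl compounds and DECR1 to reduce the dienoyl-CoA that arises when polyunsaturated fatty acids are oxidised. PGM2L1 makes glucose 1,6-bisphosphate, the cofactor of phosphoglucomutases, which interconvert glucose phosphates on the way to and from glycogen. In epidermis NADPH serves the synthesis of barrier lipids, and thiols of cysteine crosslink proteins of the cornified layer.

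By the exons of the keratinocyte count file (mm10), Idh1 (Entrez 15926) lies on the minus strand of chromosome 1 from 65158616 to 65186479 with 10 exons. Cbs (12411) lies on the minus strand of chromosome 17 from 31612644 to 31637141 with 17 exons, and Cbr2 (12409) on the minus strand of chromosome 11 from 120729485 to 120732021 with 8. Decr1 (67460) lies on the minus strand of chromosome 4 from 15917240 to 15945507 with 10 exons, and Pgm2l1 (70974) on the plus strand of chromosome 7 from 100227607 to 100278872 with 14. Another RefSeq gene lies within the span of 2 of these genes, Mir6400 in Decr1 and Gpx2-ps1 in Pgm2l1, and neither overlaps an exon.

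The sequence just upstream of the start site is shown because these genes were higher in the same genotype and lie on 5 different chromosomes, so that their promoters share no neighbourhood. RefSeq windows (GRCm38.p6) of 250 bases before the start site were found for 4 of the 5 genes, all but Decr1, and Idh1 has a window for each of its start sites. The start of the matching GENCODE M21 transcript falls inside 4 of these 5 windows, so that the last 39 bases for Idh1 NM_010497, 33 for Cbs, 93 for Cbr2 and 213 for Pgm2l1 lie within that transcript. Only the bases upstream of both starts are printed, 5′ to 3′ on the gene's strand with matched motifs in capitals, and Pgm2l1, with 37 such bases, is left out.
Idh1, NM_010497, chr1:65179182-65179392, minus strand: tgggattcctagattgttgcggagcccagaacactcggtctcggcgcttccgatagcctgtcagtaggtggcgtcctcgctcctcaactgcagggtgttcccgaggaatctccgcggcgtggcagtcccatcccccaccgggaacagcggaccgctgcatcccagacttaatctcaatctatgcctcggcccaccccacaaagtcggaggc
Idh1, NM_001111320, chr1:65186480-65186729, minus strand: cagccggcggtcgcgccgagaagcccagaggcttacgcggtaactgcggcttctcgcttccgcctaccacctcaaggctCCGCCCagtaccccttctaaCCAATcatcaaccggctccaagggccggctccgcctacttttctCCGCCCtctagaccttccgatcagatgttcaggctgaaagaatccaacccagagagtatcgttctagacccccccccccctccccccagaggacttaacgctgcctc
Cbs, chr17:31637239-31637455, minus strand: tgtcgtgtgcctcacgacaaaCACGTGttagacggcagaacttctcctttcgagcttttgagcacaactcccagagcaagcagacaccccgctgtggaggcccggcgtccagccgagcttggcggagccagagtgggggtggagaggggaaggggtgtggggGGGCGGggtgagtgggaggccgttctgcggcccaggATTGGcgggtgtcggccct
Cbr2, chr11:120732115-120732271, minus strand: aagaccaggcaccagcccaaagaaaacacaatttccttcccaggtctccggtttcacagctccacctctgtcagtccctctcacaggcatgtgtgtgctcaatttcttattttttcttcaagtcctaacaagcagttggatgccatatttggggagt

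Over the whole windows of 250 bases, base composition was not alike. The window of Pgm2l1 was 71.2% G or C with 32 CpG dinucleotides, that of Cbs 68.0% with 21, and those of Idh1 63.6% with 22 (NM_010497) and 61.6% with 18 (NM_001111320). Cbr2 stood apart with 55.6% and 3 CpG, beside a median of 52.4% over all 32851 windows. Motifs were searched on both strands of these windows. The GC box GGGCGG, which 32.7% of all windows hold, occurred 5 times in Pgm2l1, of which 2 overlap, 2 times in Cbs, 1 time in the NM_010497 window of Idh1 and 2 times in its NM_001111320 window. The E-box CACGTG, held by 6.02% of windows, occurred 1 time each in Pgm2l1 and Cbs. CCAAT, held by 33.8%, occurred 2 times in Cbs and 1 time in the NM_001111320 window of Idh1. By the GENCODE starts, all 6 matches of Pgm2l1, the match of NM_010497 and 2 of the 5 in Cbs lie inside the transcript. A pair of p53 family cores, CATGNNNNNNCATG, held by 0.490% of windows, was in none of the 5 windows. The same was true of the antioxidant response core TGACNNNGC (10.2% of windows), the AP-1 site TGANTCA (6.75%) and TATAAA (12.4%), and Cbr2 held no match to any motif. A match is a run of letters and was not shown to be bound. No absence of binding is read from a motif without a match. A motif as rare as the p53 family pair would seldom fall in 5 windows.

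The next question was how the level of each enzyme gene compares between the genotypes in every library. Keratinocyte levels are in FPKM, as deposited, which scales fragments by gene length and library total. Fold changes are ratios of mean CPM, and log2 fold changes (p63beta over p63alpha) with their standard error (SE) come from an edgeR fit over all genes. For all 5 genes the log2 fold change was positive in both kinds of sample, and its median over them was 1.66 in keratinocytes and 1.64 in epidermis, against a median of -0.00 over all genes tested in each. In bulk RNA, fewer cells of a type and less RNA per cell cannot be told apart.

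Idh1, the NADPH-making isocitrate dehydrogenase, overlapped between the genotypes in keratinocytes and was far apart in epidermis. In keratinocytes it was at 22.0, 8.79 and 12.6 FPKM in p63alpha libraries 1, 2 and 3, and at 43.1, 17.3 and 16.8 FPKM in p63beta libraries 1, 2 and 3. The groups overlapped, since p63alpha 1 was above p63beta 2 and 3, and p63beta was higher in 7 of the 9 comparisons of a p63beta with a p63alpha library. The means were 14.5 ± 6.81 and 25.7 ± 15.0 FPKM (SD, n = 3 each), a 1.76-fold difference in CPM and a log2 fold change of 0.82 ± 0.48. Between libraries with the same number, taken here as pairs, p63beta was 1.88, 1.99 and 1.39 times p63alpha in pairs 1, 2 and 3. The profiles of pairs 1 and 2 deviated together (correlation 0.577 and 0.483). For pair 3 the correlation was 0.151, no higher than for some libraries with different numbers. Without p63beta 1, the highest library, the log2 fold change fell to 0.26, and without p63alpha 1 it was 1.25.

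Epidermis showed Idh1 at 63.5, 54.3, 56.8 and 38.7 TPM in p63alpha libraries EP07, EP08, EP09 and WT3. The p63beta libraries EP10, EP11, EP12 and KO2 held 192.7, 167.6, 199.6 and 154.6 TPM. Every p63beta library was at least 2.63 times the highest p63alpha library in CPM. The means were 53.3 ± 10.5 and 178.6 ± 21.1 TPM (SD, n = 4 each), 3.61-fold in CPM and 1.85 ± 0.15 on the log2 scale. The p63beta libraries were close to each other, the highest being 1.20 times the lowest in CPM.

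Cbs, the first enzyme of transsulfuration, was low in p63alpha keratinocytes. It stood at 0.559, 0.660 and 1.70 FPKM in p63alpha 1, 2 and 3 (33, 48 and 85 read pairs) and at 7.18, 3.75 and 4.15 FPKM in p63beta 1, 2 and 3 (479, 231 and 293 read pairs). No libraries of the 2 groups overlapped, and p63alpha 3 was well above the other p63alpha libraries. The means were 0.973 ± 0.631 and 5.03 ± 1.87 FPKM (SD, n = 3 each), 5.19-fold in CPM with a log2 fold change of 2.38 ± 0.50. The ratio spread widely over the numbered pairs, 12.3, 5.75 and 2.54. In epidermis Cbs was at 10.6, 13.8, 22.4 and 12.2 TPM in EP07, EP08, EP09 and WT3, and at 49.8, 38.1, 58.9 and 78.3 TPM in EP10, EP11, EP12 and KO2. The groups were again apart, with EP09 the highest p63alpha library and KO2 the highest of all. The means were 14.8 ± 5.25 and 56.3 ± 17.0 TPM (SD, n = 4 each), 4.26-fold in CPM and 2.09 ± 0.30 on the log2 scale.

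Cbr2, the mitochondrial carbonyl reductase, was the most even of the 5 among the p63beta keratinocyte libraries, its highest being 1.17 times its lowest in CPM. It measured 7.10, 5.41 and 6.91 FPKM in p63alpha 1, 2 and 3 and 22.3, 20.9 and 18.1 FPKM in p63beta 1, 2 and 3. The lowest p63beta library was 2.58 times the highest p63alpha library in CPM. Means were 6.47 ± 0.926 and 20.4 ± 2.11 FPKM (SD, n = 3 each), 3.16-fold in CPM and 1.66 ± 0.15 on the log2 scale, and the pair ratios were 3.02, 3.90 and 2.73. Epidermis had Cbr2 at 18.9, 28.2, 46.5 and 26.6 TPM in EP07, EP08, EP09 and WT3, and at 61.3, 52.0, 59.5 and 44.7 TPM in EP10, EP11, EP12 and KO2. In TPM, EP09 lay above KO2, while in CPM the groups were apart. The means of 30.0 ± 11.7 and 54.4 ± 7.58 TPM (SD, n = 4 each) went with a 1.95-fold difference in CPM, a log2 fold change of 0.97 ± 0.23 and 1.18 without EP09.

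Decr1, the dienoyl-CoA reductase of fatty acid oxidation, gave 4.69, 5.82 and 7.25 FPKM in p63alpha keratinocyte libraries 1, 2 and 3. In p63beta 1, 2 and 3 it gave 11.9, 13.8 and 20.1 FPKM, so the groups were apart and p63beta 3 was the highest. Means were 5.92 ± 1.28 and 15.3 ± 4.32 FPKM (SD, n = 3 each), 2.61-fold in CPM and 1.38 ± 0.26 on the log2 scale. Pair ratios were close to each other, at 2.44, 2.40 and 2.89, and without p63beta 3 the log2 fold change was 1.10. In epidermis it was at 2.59, 3.24, 5.57 and 1.92 TPM in EP07, EP08, EP09 and WT3, and at 8.46, 8.23, 4.74 and 3.86 TPM in EP10, EP11, EP12 and KO2. The groups overlapped, since EP09 was above EP12 and KO2, and p63beta was higher in 14 of 16 comparisons of a p63beta with a p63alpha library in CPM. The means were 3.33 ± 1.59 and 6.32 ± 2.36 TPM (SD, n = 4 each), 2.06-fold in CPM with a log2 fold change of 1.04 ± 0.32, and 1.34 without EP09.

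Pgm2l1, the glucose 1,6-bisphosphate synthase, showed the largest fold of the 5 in keratinocytes and the lowest level per length. It was at 0.356, 0.393 and 0.443 FPKM in p63alpha 1, 2 and 3 (75, 102 and 79 read pairs) and at 4.13, 2.20 and 2.60 FPKM in p63beta 1, 2 and 3 (982, 482 and 655 read pairs). Even the lowest p63beta library was 5.08 times the highest p63alpha library in CPM. The means were 0.397 ± 0.0435 and 2.97 ± 1.02 FPKM (SD, n = 3 each), 7.48-fold in CPM and 2.90 ± 0.26 on the log2 scale, with pair ratios of 11.1, 5.64 and 6.10. In epidermis EP07, EP08, EP09 and WT3 held 0.721, 1.32, 2.64 and 0.574 TPM, and EP10, EP11, EP12 and KO2 held 2.78, 3.26, 3.81 and 4.38 TPM. The groups met closely without overlap, EP09 lying just under EP10. Means were 1.31 ± 0.939 and 3.56 ± 0.690 TPM (SD, n = 4 each), 3.10-fold in CPM with a log2 fold change of 1.64 ± 0.41, and 2.15 without EP09.

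**Figure D1:**
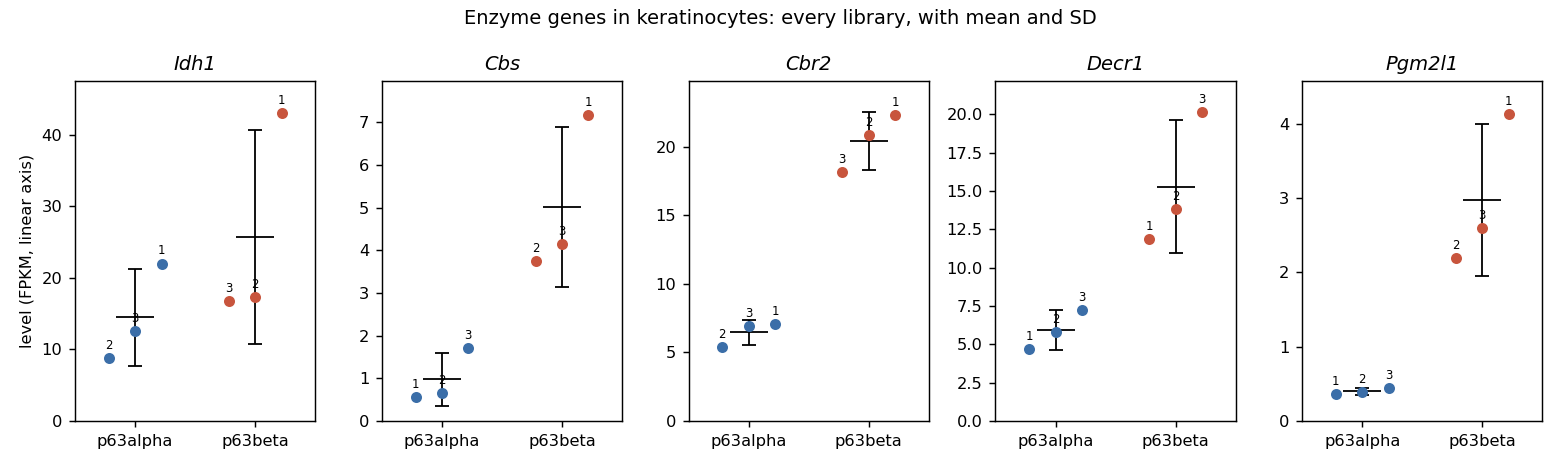
Level of each enzyme gene in keratinocytes in FPKM (vertical axis, linear, from 0), with a point per library numbered 1 to 3 and the mean with its SD, for p63alpha and p63beta. The 3 p63beta points lie above the 3 p63alpha points for Cbs, Cbr2, Decr1 and Pgm2l1, while Idh1 overlaps.

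**Figure D2:**
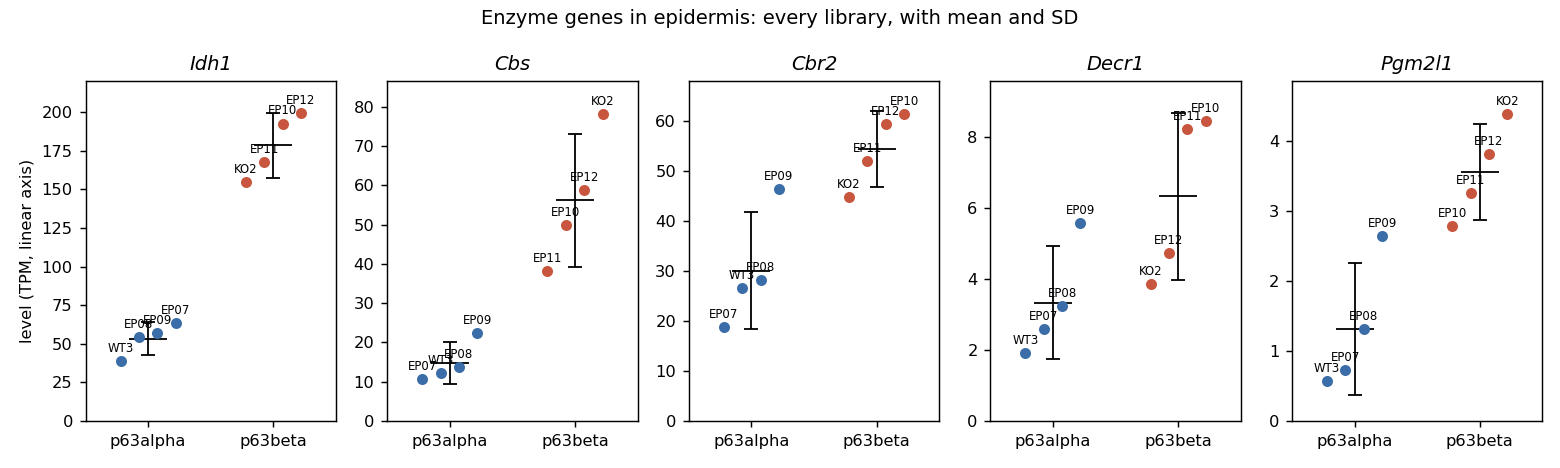
Level of each enzyme gene in epidermis in TPM (vertical axis, linear, from 0), with a named point per library and the mean with its SD, for p63alpha and p63beta. Idh1, Cbs and Pgm2l1 are apart, and in Cbr2 and Decr1 the p63alpha library EP09 reaches into the p63beta group.

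The edgeR fit over all genes, with p-values adjusted by Benjamini and Hochberg, called Cbr2 and Pgm2l1 in keratinocytes and Idh1 and Cbs in epidermis, each higher in p63beta. That is 2 of 5 in each kind, beside 0.0941% of the 13820 genes tested in keratinocytes and 0.217% of the 13796 tested in epidermis. The epidermis fit called 32 genes in either direction, or 0.232%. None of the 5 was called in both kinds, Decr1 was called in neither, and since the genes were picked on this contrast nothing is read from these shares. A keratinocyte fit blocked on the replicate number called 37 genes (0.268% of those tested, either direction) in place of 14 (0.101%). It called 3 of the 5 enzymes: Cbr2 (1.67 ± 0.14), Decr1 (1.36 ± 0.09) and Pgm2l1 (2.86 ± 0.23 on the log2 scale). Idh1 (0.79 ± 0.12) and Cbs (2.46 ± 0.48) were not called with the block. All p63beta libraries lay above all p63alpha libraries in CPM for 4 of the 5 genes in keratinocytes, beside 6.51% of genes tested, and for 4 of the 5 in epidermis, beside 1.88%. The exceptions were Idh1 in keratinocytes and Decr1 in epidermis. Whether an effect differed between keratinocytes and epidermis was not tested, because the kinds were quantified by different tools.

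The authors' deposited tables of results give log2 fold changes of the same sign for all 5 genes. In keratinocytes the authors' deposited table has 0.37 for Idh1, 0.95 for Cbs, 1.39 for Cbr2, 0.95 for Decr1 and 1.95 for Pgm2l1, each smaller than the edgeR value. That column is named as shrunken, so its values are pulled toward 0 by construction and are not on the scale of the edgeR fold changes. For epidermis the authors' deposited table, whose column is not named as shrunken, has 1.85, 2.10, 0.97, 1.05 and 1.64 in the same order, each within 1 SE of the edgeR value.

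Per length, the order of the genes was not the same in keratinocytes and epidermis. In p63alpha keratinocytes Idh1 was highest, and its lowest library, at 8.79 FPKM, lay above the highest of Cbr2, at 7.10 FPKM. Cbr2 and Decr1 overlapped, Cbs followed, and Pgm2l1 lay below it without overlap. In p63beta keratinocytes Idh1 (16.8 to 43.1 FPKM), Cbr2 (18.1 to 22.3) and Decr1 (11.9 to 20.1) overlapped, and so did Cbs (3.75 to 7.18) and Pgm2l1 (2.20 to 4.13). In p63alpha epidermis Idh1 ranged from 38.7 to 63.5 TPM and overlapped Cbr2, which reached 46.5 TPM in EP09. In p63beta epidermis Idh1 was far above the rest, at 154.6 to 199.6 TPM. Cbs overlapped Cbr2 in epidermis of both genotypes, whereas Decr1 and Pgm2l1, which overlapped each other in both, reached at most 8.46 TPM there. Percentiles among all genes tested were taken from the mean level over both genotypes, so they include the p63beta libraries for which the genes were picked. Idh1 stood at the 92.5th percentile in epidermis and the 71.3rd in keratinocytes, and Cbs at the 75.4th and 30.2nd. Decr1 went the other way, at the 31.2nd percentile in epidermis and the 55.2nd in keratinocytes, Cbr2 stood at the 79.0th and 61.5th, and Pgm2l1 at the 21.6th and 22.8th.

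Whether the genotypes use the same transcripts of these genes was a question that the choice of genes did not touch, and the transcript table of epidermis allowed a test of it. Cbr2, Decr1 and Pgm2l1 have 1 transcript each there, Idh1 has 2 and Cbs 3. For Idh1, NM_010497, the first of the upstream sequences printed above, carried 97.6% to 100% of the TPM in every library. The other transcript, NM_001111320, has an upstream start at 65186479 and the same coding length of 1242 bases by GENCODE M21. Its share was 0.646% ± 1.14 under p63alpha and 0.111% ± 0.106 under p63beta (SD, n = 4 each, two-sided exact permutation p 0.714, adjusted 0.943). Nearly all of the Idh1 RNA in both genotypes was therefore assigned to the downstream start.

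Cbs RNA was split mainly between NM_178224, with a coding length of 1641 bases in 16 exons, and NM_144855, with 1683 bases in 17 exons. NM_178224 carried 62.0%, 75.8%, 80.7% and 60.2% of the Cbs TPM in EP07, EP08, EP09 and WT3, and 54.1%, 71.9%, 63.3% and 66.4% in EP10, EP11, EP12 and KO2. The shares interleaved, with means of 69.7% ± 10.1 and 63.9% ± 7.46 (SD, n = 4 each, two-sided exact permutation p 0.4, adjusted 0.8). NM_144855 carried 29.3% ± 8.98 and 28.8% ± 5.50 (SD, n = 4 each, two-sided exact permutation p 0.943, adjusted 0.943). NM_001271353 was listed at 0 in 3 p63alpha libraries and 1 p63beta library and reached 21.5% in EP10, with means of 1.04% ± 2.08 and 7.31% ± 9.75 (SD, n = 4 each, two-sided exact permutation p 0.257, adjusted 0.8). The smallest p that the 70 splits allow is 0.0286, which for a single share adjusted over the 4 tested is 0.114, so no share could have passed alone and no absence of a difference is read from these tests. Transcript values are estimates of the quantifier, whose uncertainty is not in the files used here.

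The enzymes that share a pathway with these genes were compared next, in 6 lists without the 5 genes themselves. edgeR called 0 of the 129 list genes tested in keratinocytes and 0 of the 129 tested in epidermis, where 11 and 7 had an unadjusted p under 0.05, beside 6.85% and 4.64% of all genes tested. DESeq2 called 3 of 132 list genes with an adjusted p in keratinocytes (2.27%, beside 1.46% of all such genes) and 0 of 132 in epidermis (beside 0.947%), and limma on log2 FPKM or TPM called 0 in both. In keratinocytes the log2 fold change was above 0 for 95 of 129 list genes and had a median of 0.11, against 49.7% positive and a median of -0.00 over all genes tested. Without library p63beta 3 this became 58 of 130 with a median of -0.02. The log2 fold changes without it were 1.03 (Idh1), 2.47 (Cbs), 1.72 (Cbr2), 1.10 (Decr1) and 2.96 (Pgm2l1). These 5 genes were picked for a higher level in p63beta and the list genes were not, so nothing is read from that difference. In epidermis 81 of 129 were positive with a median of 0.07, against 49.3% and -0.00 over all genes tested. On the log2(TPM + 1) scale 57 of 129 were positive there with a median of -0.02, against -0.09 over all genes on that scale. Leaving out 1 epidermis library gave 67 (without KO2) to 92 (without WT3) positive genes.

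Of the NADPH-making enzymes besides Idh1, 9 of 16 were positive in keratinocytes (median 0.01) and 12 of 16 in epidermis (median 0.15). The keratinocyte median turned to -0.08 without p63beta 3 (5 of 16 positive) and to -0.05 without p63beta 2 (6 of 16). Me1, the cytosolic malic enzyme, went from 60.9 ± 4.44 to 77.5 ± 8.18 CPM in keratinocytes (SD, n = 3 each, 0.35 ± 0.10 on the log2 scale, edgeR adjusted p 0.556). The tetrahydrofolate enzymes Aldh1l2 (-0.67 ± 0.23) and Mthfd1 (0.37 ± 0.16) had opposite signs there (edgeR adjusted p 0.642 and 0.728). In epidermis Me3, a mitochondrial malic enzyme, was at 0.213 ± 0.0498 and 0.584 ± 0.231 CPM (SD, n = 4 each, 1.46 ± 0.47, edgeR adjusted p 0.677). Mthfd2l (-0.46 ± 0.23) and Pgls (0.35 ± 0.21) followed in epidermis (edgeR adjusted p 0.99985 for both). Idh2, the mitochondrial counterpart of Idh1 and chosen here for that reason, was at 150.04 ± 14.9 and 150.9 ± 19.7 TPM in epidermis (SD, n = 4 each, 0.13 ± 0.16, edgeR adjusted p 0.99985). In keratinocytes it had 0.40 ± 0.41 (edgeR adjusted p 0.937).

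The tricarboxylic acid cycle held 18 of 19 positive genes in keratinocytes (median 0.09) and 14 of 19 in epidermis (median 0.06). The lowest p-values were those of Suclg2 (0.17 ± 0.08), Mdh1 (0.55 ± 0.27) and Ogdh (0.38 ± 0.21) in keratinocytes, with edgeR adjusted p of 0.760, 0.767 and 0.823. In epidermis they were those of Idh3g (0.23 ± 0.14), Mdh2 (0.29 ± 0.18) and Suclg1 (0.20 ± 0.15), all with an edgeR adjusted p of 0.99985. Without p63beta 3, 6 of 19 were positive in keratinocytes and the median was -0.04.

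For the methionine cycle and transsulfuration besides Cbs, 11 of 19 genes were positive in keratinocytes (median 0.08, and 0.04 with 11 of 20 without p63beta 3) and 8 of 20 in epidermis (median -0.04). Without WT3 the epidermis median turned to 0.07, with 12 of 20 positive. Sqrdl, which encodes the mitochondrial sulfide oxidase, had the largest difference of the genes named from this list in keratinocytes, 2.32 ± 0.343 against 6.79 ± 1.82 CPM (SD, n = 3 each, 1.55 ± 0.27, edgeR adjusted p 0.233), and was 1 of the 3 list genes that DESeq2 called. Mat2a, which makes S-adenosylmethionine, and Suox, sulfite oxidase, had 0.26 ± 0.11 and -0.27 ± 0.16 (edgeR adjusted p 0.730 and 0.825). In epidermis Ethe1, another enzyme of mitochondrial sulfide oxidation, was at 6.89 ± 2.92 and 13.6 ± 5.41 CPM (SD, n = 4 each, 0.98 ± 0.37, edgeR adjusted p 0.875). Cth, which takes the cystathionine made by CBS to cysteine, had 1.12 ± 0.52 in epidermis (edgeR adjusted p 0.99985) and 0.09 ± 0.13 in keratinocytes (edgeR adjusted p 0.967). Ahcyl2 had -0.42 ± 0.20 in epidermis (edgeR adjusted p 0.99985).

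Among the carbonyl reductases and related dehydrogenases besides Cbr2, 14 of 22 were positive in keratinocytes (median 0.13) and 16 of 21 in epidermis (median 0.20). Without p63beta 3 the keratinocyte median turned to -0.02, with 11 of 22 positive. The epidermis median was 0.07 without KO2 (13 of 21) and 0.08 on the log2(TPM + 1) scale (13 of 21). Cbr3, a cytosolic carbonyl reductase, was at 6.35 ± 1.05 and 9.83 ± 0.244 CPM in keratinocytes (SD, n = 3 each, 0.63 ± 0.17, edgeR adjusted p 0.485). Akr1c13 (0.92 ± 0.31) and Dhrs1 (-0.32 ± 0.11) had opposite signs (edgeR adjusted p 0.622 and 0.628). The aldose reductase relative Akr1b8 measured 4.34 ± 3.04 and 14.3 ± 7.01 CPM in epidermis (SD, n = 4 each, 1.71 ± 0.59, edgeR adjusted p 0.767), with overlapping groups. Akr1b10 (0.94 ± 0.38) and Cbr1 (0.62 ± 0.28) came next in epidermis (edgeR adjusted p 0.953 and 0.99985), and Cbr1 had -0.11 ± 0.15 in keratinocytes (edgeR adjusted p 0.961).

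In the list of fatty acid beta-oxidation besides Decr1, 25 of 30 genes were positive in keratinocytes (median 0.22), but 12 of 30 without p63beta 3 (median -0.01). Epidermis had 16 of 31 positive with a median of 0.02, which was below 0 in 4 of the 8 fits that left out 1 library. Acaa2, the mitochondrial thiolase of the last step, measured 59.3 ± 10.9 and 100.8 ± 30.1 CPM in keratinocytes (SD, n = 3 each, 0.76 ± 0.24, edgeR adjusted p 0.575) and 153.6 ± 34.0 and 223.7 ± 38.9 CPM in epidermis (SD, n = 4 each, 0.54 ± 0.20, edgeR adjusted p 0.868). Acsl5, which activates fatty acids, had -0.29 ± 0.07 in keratinocytes (edgeR adjusted p 0.448, called lower by DESeq2) and 0.24 ± 0.20 in epidermis (edgeR adjusted p 0.99985). Etfdh (0.38 ± 0.22, edgeR adjusted p 0.834) in keratinocytes and Acadm (0.20 ± 0.17, edgeR adjusted p 0.99985) in epidermis complete the genes named from this list. Decr2, the peroxisomal counterpart of Decr1 and chosen here for that reason, had -0.02 ± 0.10 in keratinocytes and -0.15 ± 0.35 in epidermis (edgeR adjusted p 0.990 and 0.99985).

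For phosphoglucomutases, hexose phosphates and glycogen besides Pgm2l1, 18 of 23 genes were positive in keratinocytes (median 0.08), 13 of 23 without p63beta 3 (median 0.00), and 15 of 22 in epidermis (median 0.11, and 0.32 without WT3). Hk2, the hexokinase that traps glucose in the cell, was at 68.2 ± 5.39 and 100.8 ± 10.9 CPM in keratinocytes (SD, n = 3 each, 0.56 ± 0.11, edgeR adjusted p 0.270) and was called by DESeq2. Pgm2, a phosphoglucomutase, had 0.40 ± 0.11 in keratinocytes and 0.72 ± 0.37 in epidermis (edgeR adjusted p 0.507 and 0.99985). Gpi1, glucose-6-phosphate isomerase, had 0.22 ± 0.07 and 0.42 ± 0.23 in the same order (edgeR adjusted p 0.612 and 0.99985), and the glycogen phosphorylase Pygb had -0.46 ± 0.20 in epidermis (edgeR adjusted p 0.99985). Pgm1, also a phosphoglucomutase and chosen here for that role, had 0.01 ± 0.19 in keratinocytes and 0.27 ± 0.19 in epidermis (edgeR adjusted p 0.997 and 0.99985).

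**Figure D3:**
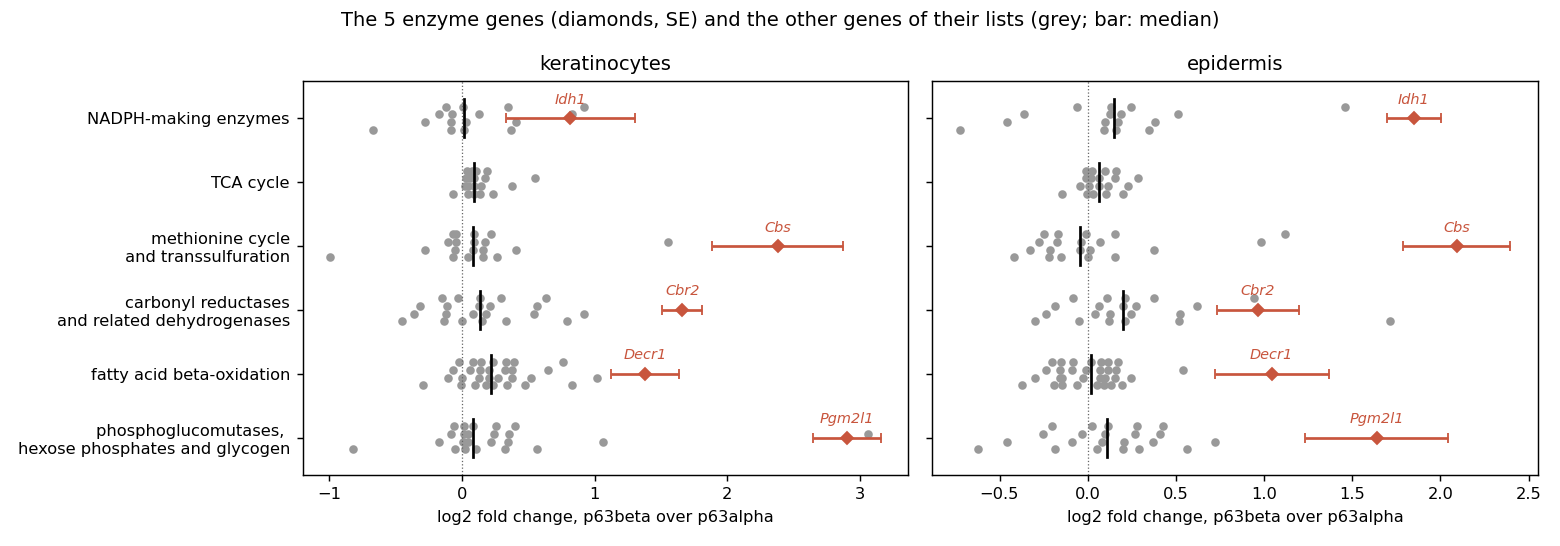
Log2 fold change of p63beta over p63alpha (horizontal axis) for the 5 enzyme genes (diamonds with SE) and the other tested genes of their lists (grey points, bar at the median), in keratinocytes and epidermis. The medians of the lists lie between -0.04 and 0.22, and the 5 genes, which were picked for a higher level in p63beta, lie between 0.82 and 2.90.

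Across the 14 libraries, after each kind of sample was centred on its own mean, the 5 genes differed in how alike their profiles were. This is a description over libraries that share the genotype contrast used to pick the genes. Cbs, Cbr2 and Pgm2l1 were most alike, with Pearson r of 0.938 for Cbs and Pgm2l1, 0.940 for Cbr2 and Pgm2l1 and 0.912 for Cbs and Cbr2. Decr1 had r of 0.783 to 0.839 with these 3. Idh1 stood furthest from the others, with r from 0.566 (Decr1) to 0.754 (Cbs).

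Among 9299 genes with a mean of at least 5 CPM in both kinds of sample, the 2 genes most like Idh1 were Slc16a10, an aromatic amino acid transporter (r 0.947), and Sec22c, a vesicle transport protein (r 0.907). Slc16a10 had log2 fold changes of 0.27 ± 0.37 in keratinocytes and 1.25 ± 0.18 in epidermis, and the difference between the kinds was not tested. The pair most like Cbs was Pgm2l1 and Nid2, the basement membrane nidogen (r 0.931), and the pair most like Cbr2 was Pgm2l1 and Nid2 (r 0.932). Nid2 had log2 fold changes of 7.16 ± 0.24 in keratinocytes and 6.24 ± 0.28 in epidermis. Its profile is thus mostly the genotype contrast by which the 5 genes were picked. Antxr1, a collagen-binding receptor, was the first for Decr1 (r 0.866, Nid2 next at 0.850) and for Pgm2l1 (r 0.960, Cbr2 next at 0.940), and it had log2 fold changes of 0.94 ± 0.07 in keratinocytes and 0.64 ± 0.16 in epidermis.

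**Figure D4:**
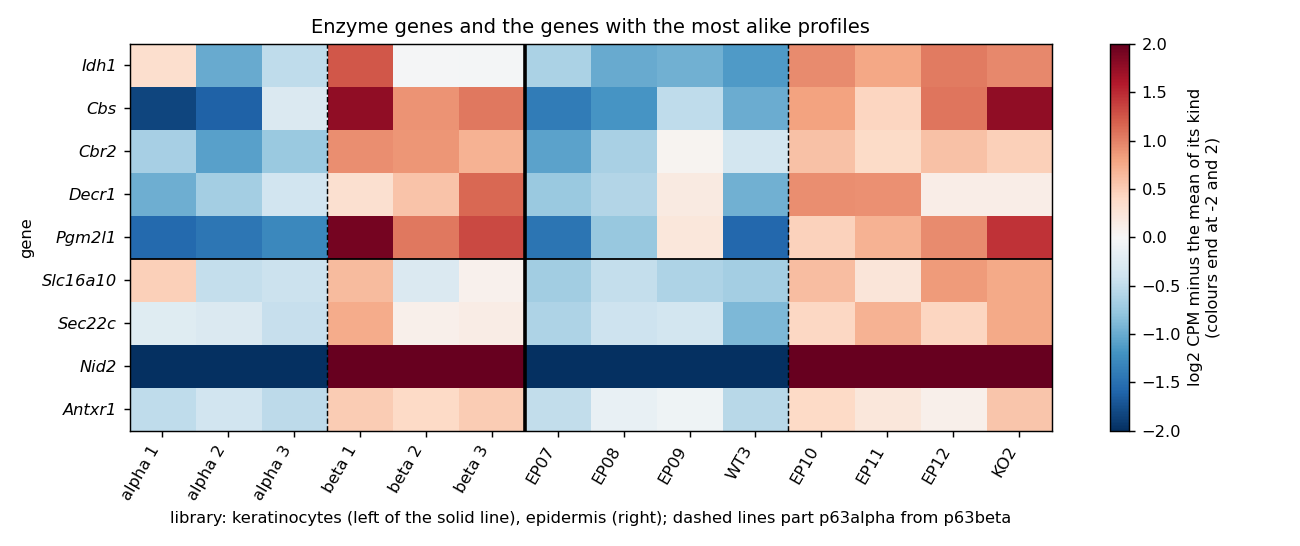
Log2 CPM minus the mean of the kind of sample (colour) for the 5 enzyme genes and the genes most alike (rows) in 14 libraries (columns, keratinocytes left of the solid line, epidermis right, dashed lines between the genotypes). In epidermis the p63alpha library EP09 is paler than its group for Cbs, Cbr2, Decr1 and Pgm2l1, which were at 22.4, 46.5, 5.57 and 2.64 TPM there.

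Markers of other cell types moved with some of these values. In p63beta 3, 11 of 13 heart muscle markers had their highest keratinocyte value, as did 8 of 10 adipocyte markers, which summed to 247.8 CPM against 11.4 to 20.0 CPM in the other 5. Of 10 endothelial markers 9 were highest there (59.2 CPM against 11.9 to 20.2), and of 10 fibroblast markers 7 (270.2 CPM against 82.1 to 204.6). Skeletal muscle markers summed to 414.7 CPM against 24.4 to 109.2, but only 3 of 10 were highest there. Of these 10, 5 were under 1 CPM in every keratinocyte library, with Myod1 at 0. Decr1 was also highest in p63beta 3, at 61.0 CPM against 34.3 and 41.2 in p63beta 1 and 2. Its log2 fold change was 1.38 with that library and 1.10 without it. Decr1 was picked for a higher level in p63beta, so nothing is read from the sign that remains. Idh1, Cbs and Pgm2l1 were highest in p63beta 1, and Cbr2 was lowest in p63beta 3 among the p63beta libraries. The part of these cells in the level of Decr1 was not tested.

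In epidermis, EP09 held the highest value of 6 of 10 sebaceous gland and hair follicle markers, and its T cell markers (8 of 10 in the table) summed to 78.8 CPM against 26.4 to 59.7 CPM elsewhere. EP09 was also the highest p63alpha library for Cbs, Cbr2, Decr1 and Pgm2l1, and leaving it out raised the log2 fold change of all 4, to 2.29, 1.18, 1.34 and 2.15, while Idh1 stayed at 1.84. Melanocyte markers (10 genes, none at 0) summed to 147 to 337 CPM in p63alpha and 374 to 587 CPM in p63beta without overlap. Fibroblast markers were lower in p63beta epidermis, at 354 to 520 CPM against 545 to 610 CPM. Their part in the levels of the 5 genes was not tested.

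**Figure D5:**
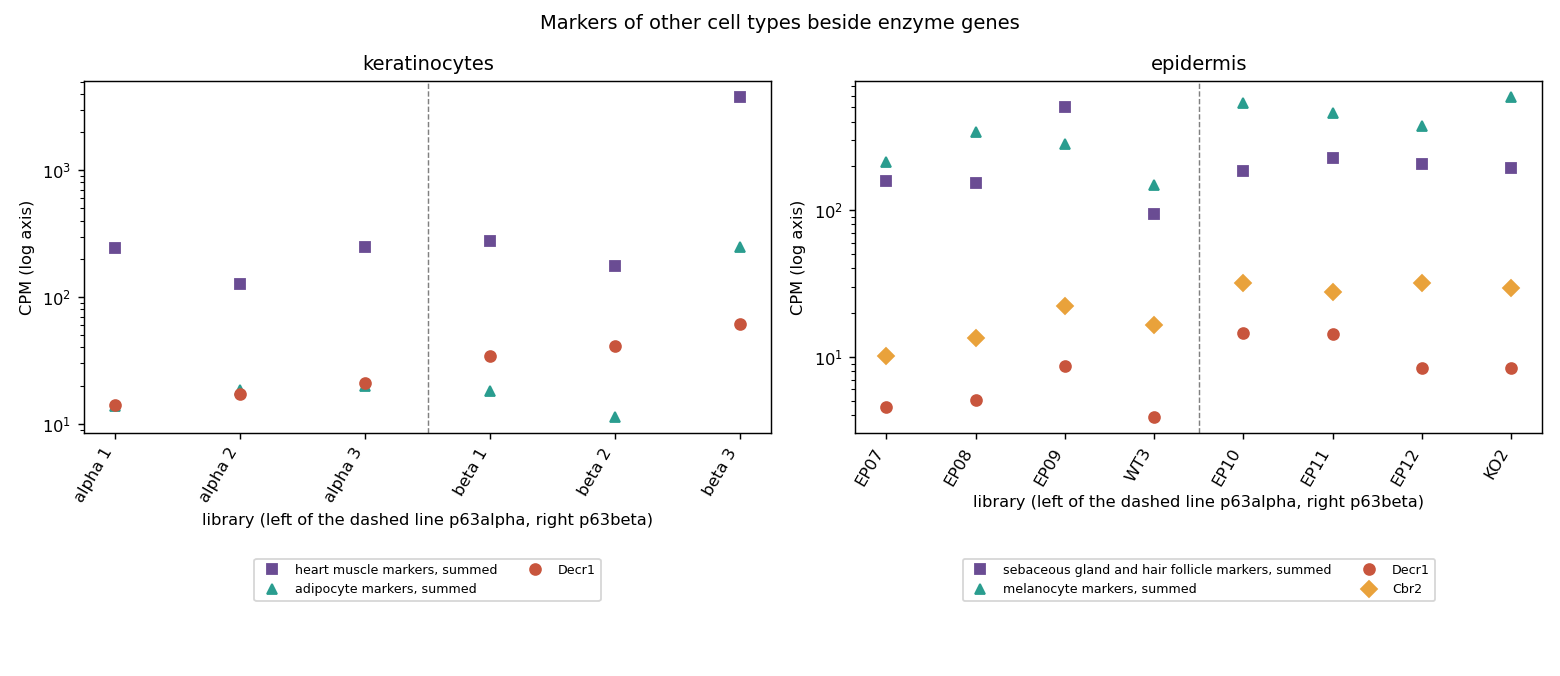
CPM on a log axis in each keratinocyte and epidermis library (horizontal axis) for summed markers of other cell types and for Decr1 and Cbr2. Heart muscle and adipocyte markers peak in p63beta 3, at 3777 and 247.8 CPM, and sebaceous gland and hair follicle markers peak in EP09, at 506 CPM.

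The names of the epidermis columns fall in 2 styles, 6 with an EP number and 2 named WT3 and KO2, each with both genotypes. All 5 genes were higher in p63beta within each style, from which nothing is read, since they were picked for that direction in these libraries. The ratio of p63beta to p63alpha CPM was 3.43 in the EP-numbered libraries and 4.25 for KO2 over WT3 for Idh1, 3.41 and 6.83 for Cbs, 2.01 and 1.79 for Cbr2, and 2.04 and 2.14 for Decr1. Pgm2l1 differed most, at 2.32 and 8.10. Each ratio of KO2 over WT3 rests on 1 library per genotype.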

How the data were processed

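RNA was measured in 14 libraries prepared with a stranded mRNA kit, per the labels' protocols. For keratinocytes the authors deposited raw counts of read pairs per RefSeq gene (mm10), made by featureCounts 1.5.2 from STAR alignments (strand setting 2, both ends mapped, at least 25 bases of overlap), per the file headers, and FPKM of the same libraries, which recomputation from counts and lengths gave back. For epidermis the authors deposited estimated counts and TPM per gene and transcript, made with salmon on mm10 per the submitters' processing notes, and 95.1% of the gene counts were whole. Their tables of results hold log2 fold changes deposited by the authors, and 14 per-library columns in them were not used. For 27 symbols turned into dates, identifiers were used.

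Samples were grouped by the genotype in the labels. Epidermis columns named WT and KO stand for p63alpha and p63beta here, a reading taken from the keratinocyte count file, whose header uses the same words. Each kind was fitted alone with edgeR 4.0.16 (R 4.3.3), with TMM, filterByExpr, robust quasi-likelihood F tests and Benjamini-Hochberg adjustment over all genes tested, called under 0.05. Estimated counts were rounded. CPM are TMM-normalised. The 5 genes, the 6 enzyme lists and the marker lists were chosen with earlier results of these data known. List genes are named if called, or if among the 3 lowest p in a fit. The 2 genes most alike are named per enzyme gene, and Idh2, Decr2 and Pgm1, and Cth and Cbr1 in keratinocytes, were added for their role after values were seen. The fits were tested on simulated data. Shares of transcripts were compared with exact permutation tests (scipy 1.17.1).

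The labels number the keratinocyte libraries 1 to 3 in each genotype. Over 12629 genes with at least 1 CPM, the deviations of same-numbered libraries from their group means correlated at 0.577, 0.483 and 0.151, so the numbers were taken to pair the libraries. Some different numbers correlated at least as well as pair 3 (0.162 for p63alpha 3 with p63beta 2, and 0.154 for p63alpha 2 with p63beta 3). Alternatives were RLE size factors, no filter, leaving out each library, DESeq2 1.42.0, limma 3.58.1 on log2 values (FPKM or TPM plus 1 or 0.1), the replicate block, the style of the epidermis column names as a term and, for shares, estimated counts and transcripts of at least 0.5 TPM. The EP-numbered libraries alone and the lists without p63beta 3 or EP09 were chosen after seeing the data.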

Additional observations from a re-analysis of the deposited data

Results flagged for a closer look

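The share of the upstream-start transcript NM_001111320 in the Idh1 TPM of p63alpha epidermis had a library far from the others. EP08 was at 2.36% and EP07, EP09 and WT3 at 0.231%, 0% and 0%, and the gap from EP08 to the next library was 0.902 of the whole range. The share of NM_001271353 in the Cbs TPM of p63alpha epidermis was 4.16% in WT3 and 0% in EP07, EP08 and EP09, a gap of 1 times the range. The nominal rate at which chance alone marks a group in this way is about 1 in 20. That rate was not measured for shares that tie at 0. Where all libraries but 1 are at 0, the gap is 1 times the range whatever the remaining value.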

How the results depend on the processing

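The 5 enzyme genes were picked for a higher level in p63beta, so nothing is read from the sign of their log2 fold changes. That sign was positive for each gene under every alternative run, 12 besides the values reported for keratinocytes and 15 for epidermis. Counts of genes called moved far more. In keratinocytes 14 genes were called, and leaving out 1 library gave 1 to 4, DESeq2 211, and the fit with the replicate block 37. In epidermis 32 were called, leaving out 1 library gave 10 to 28, DESeq2 152 and the EP-numbered libraries alone 8. In epidermis Idh1 was called in all 16 fits, Cbs in 10, Cbr2 and Pgm2l1 in 1 each and Decr1 in 0. Since the genes were picked on this contrast, nothing is read from these counts. Without each epidermis library in turn, Cbs was called in 3 of 8 fits, those without EP09, EP11 or KO2. In keratinocytes Cbr2 was called in 7 of 13 fits, Pgm2l1 in 6, Decr1 in 2, Cbs in 1 and Idh1 in 0. With 1 keratinocyte library left out, Cbr2 was called in 0 of 6 fits and Pgm2l1 in 1 of 6, that without p63beta 1. On the log2(FPKM + 1) scale Pgm2l1 in keratinocytes was at 1.48, where the pseudocount is larger than its p63alpha level.

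With the replicate block, besides the count of 37, Decr1 in keratinocytes was called where it had not been, and no list gene was called. No paired analysis was possible for epidermis because its columns carry no replicate numbers, nor for the transcript shares, which are from epidermis. The difference in the share of Cbs NM_144855 was -0.49 percentage points and turned to 2.41 without EP07, 1.63 without WT3, 0.969 without EP10 and 0.468 without EP11, and at the other end stood at -3.81 without EP09. That of Idh1 NM_001111320 was -0.54 points and turned to 0.0341 without EP08, the lowest value being -0.75 without EP09. With 4 libraries against 3 the smallest possible p is 0.0571, so those shares could not pass. Depth limits Cbs and Pgm2l1 most in p63alpha keratinocytes, at 33 to 102 read pairs.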
